A study of Rattus norvegicus with 71 samples.

Results

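The DNA replication genes described here are a list of 49 genes whose products copy the genome once per cell cycle, chosen by name and by function. A gene counted as measured when 3 or more arrays gave its probe a detection p-value below 0.01, and 44 of the 49 met this rule, out of 9642 genes with such a probe. Rrm1, Tk1, Chaf1a and Dut had no probe paired with their symbol, and the Rpa1 probe was not detected on 3 arrays. Whole lungs of 3 rat strains, Lewis, Fisher and Brown Norway, had been taken on postnatal days 1, 7 and 14 (PN1, PN7 and PN14), each after exposure in utero to saline or to ovalbumin, an egg white protein used as an allergen. Every one of the 18 groups had 4 arrays except Fisher PN7 saline, which had 3, giving 71 in all. The study asked, by its title, how allergen exposure before birth bears on the development of lung gene expression in rat strains that differ in susceptibility to asthma models. The labels name no sex, litter or animal for an array, so p-values measure only the spread between these samples, which may be technical.

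A cell that is to divide first licenses its replication origins: the origin recognition complex, with Cdc6 and Cdt1, loads the ring-shaped Mcm2 to Mcm7 helicase, and geminin (Gmnn) blocks a second loading. The GINS complex and Mcm10 help turn the loaded helicase into a moving fork, primase and polymerase alpha lay down primers, and polymerases delta and epsilon extend them with the sliding clamp Pcna and its loader, replication factor C. Transcription of many of these genes is switched on at the border of G1 and S phase by E2F factors. In the rat the lung forms most of its alveoli after birth, when many of its cells still divide.

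Promoters of 5 of the genes are shown. Of these, 4 hold letters that E2F factors are known to bind and are among the genes the results turn on. Pola2, shown for comparison, has none of the forms searched, as have 16 others of the 36 genes with a window. The Pola2 window does hold the letters tttggcgg, which differ from a searched form only in the last letter. Such near forms were not counted. Each runs from 250 bases before the RefSeq gene start to 50 after it, 5′ to 3′ on the gene's strand in build GRCr8, with matches to the E2F letters in capitals. The letters searched, on both strands, were TTTCCCGC, TTTCGCGC, TTTGCCGC and TTTGGCGC. The windows lie at chr4:122918045-122918344 on the minus strand for Mcm2, chr3:160184670-160184969 on the plus strand for Gins1, chr8:75315467-75315766 on the plus strand for Pclaf, chr19:13488563-13488862 on the plus strand for Mcm5 and chr1:212680493-212680792 on the minus strand for Pola2.
Mcm2: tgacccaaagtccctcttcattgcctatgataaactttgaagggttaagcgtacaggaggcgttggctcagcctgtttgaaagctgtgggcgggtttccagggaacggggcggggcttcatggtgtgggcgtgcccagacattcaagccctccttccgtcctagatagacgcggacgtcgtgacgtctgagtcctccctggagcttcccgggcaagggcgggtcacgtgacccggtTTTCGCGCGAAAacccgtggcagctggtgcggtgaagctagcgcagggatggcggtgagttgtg
Gins1: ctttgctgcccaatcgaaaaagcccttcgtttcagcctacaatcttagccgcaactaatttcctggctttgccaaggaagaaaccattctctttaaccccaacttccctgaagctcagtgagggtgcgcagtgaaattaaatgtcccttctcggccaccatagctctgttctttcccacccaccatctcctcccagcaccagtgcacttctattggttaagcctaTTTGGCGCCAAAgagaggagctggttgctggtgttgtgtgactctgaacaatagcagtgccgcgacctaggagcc
Pclaf: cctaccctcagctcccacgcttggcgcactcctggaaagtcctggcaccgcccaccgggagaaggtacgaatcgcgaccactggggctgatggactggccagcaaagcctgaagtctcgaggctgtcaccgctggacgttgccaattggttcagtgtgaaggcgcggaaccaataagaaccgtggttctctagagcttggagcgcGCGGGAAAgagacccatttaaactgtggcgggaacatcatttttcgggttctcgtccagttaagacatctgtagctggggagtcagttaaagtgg
Mcm5: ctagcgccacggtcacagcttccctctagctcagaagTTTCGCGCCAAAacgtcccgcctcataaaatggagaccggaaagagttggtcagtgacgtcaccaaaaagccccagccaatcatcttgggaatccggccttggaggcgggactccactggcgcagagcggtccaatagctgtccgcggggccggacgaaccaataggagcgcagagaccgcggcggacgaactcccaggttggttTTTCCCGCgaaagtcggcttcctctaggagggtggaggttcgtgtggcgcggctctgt
Pola2: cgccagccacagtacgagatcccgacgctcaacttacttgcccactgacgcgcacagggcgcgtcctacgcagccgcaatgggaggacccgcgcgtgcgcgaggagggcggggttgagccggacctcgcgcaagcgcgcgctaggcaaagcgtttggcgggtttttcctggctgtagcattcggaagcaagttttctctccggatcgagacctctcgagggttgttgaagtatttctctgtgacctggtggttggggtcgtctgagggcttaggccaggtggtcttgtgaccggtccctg
In Mcm2 and in Gins1 a match on 1 strand overlaps a match on the other, in Mcm5 the upstream capitals hold such a pair and another match lies next to the start, and Pclaf has 1 match, on the minus strand. RefSeq had a window for 36 of the 44 measured genes, and 19 of the 36 (52.8%) held at least 1 match, against 618 of 27457 promoters of all genes (2.25%) and 307 of 7980 promoters of genes with a detected probe (3.85%). Of 30 promoters of other replication genes 16 held a match (53.3%), and of 17 promoters of mitosis genes 1 did (5.88%). The 36 promoters held 28 matches, 22 of them within 100 bases of the start, and 8 promoters held more than 1. The letters CCAAT, or ATTGG on the other strand, were in 22 of the 36 promoters (61.1%), against 37.7% of all promoters, 36.7% of the other replication genes and 76.5% of the mitosis genes. A match is a description of these letters and shows no binding, and the promoters of Cdc6 and Rrm2 had no window.

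Levels are log2 intensities after background correction and quantile normalization with the neqc method of the limma package, and differences are differences of group means on that log2 scale with their standard errors. A gene was called higher or lower when limma's Benjamini-Hochberg adjusted p over all 14019 detected probes was under 0.05. The arrays detected between 10128 and 12437 probes each, and all 6 lung markers with a probe were detected on all 71 arrays. Of the 44 genes, 27 were detected on every array, 16 on 50 to 70 arrays, and Uhrf1 on fewer. The arrays stood on 6 slides; at PN1 and PN7 some slides held both exposures or all strains, while saline arrays of different ages shared no slide between PN1 and PN7 or between PN7 and PN14. On 3 arrays a marker list of another tissue stood over 4 log2 units above its mean over all arrays, the liver list on Fisher PN1 saline array a (6.30) and on Lewis PN7 saline array d (5.13) and the thymus and T cell list on Lewis PN1 ovalbumin array a (4.90). Leaving these 3 arrays out gave 35 genes higher from PN1 to PN7 over the strains, 37 higher in Fisher than in Lewis at PN1 and 44 lower after ovalbumin in Lewis at PN7, counts within 1.5 times of those given below.

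**Figure D1:**
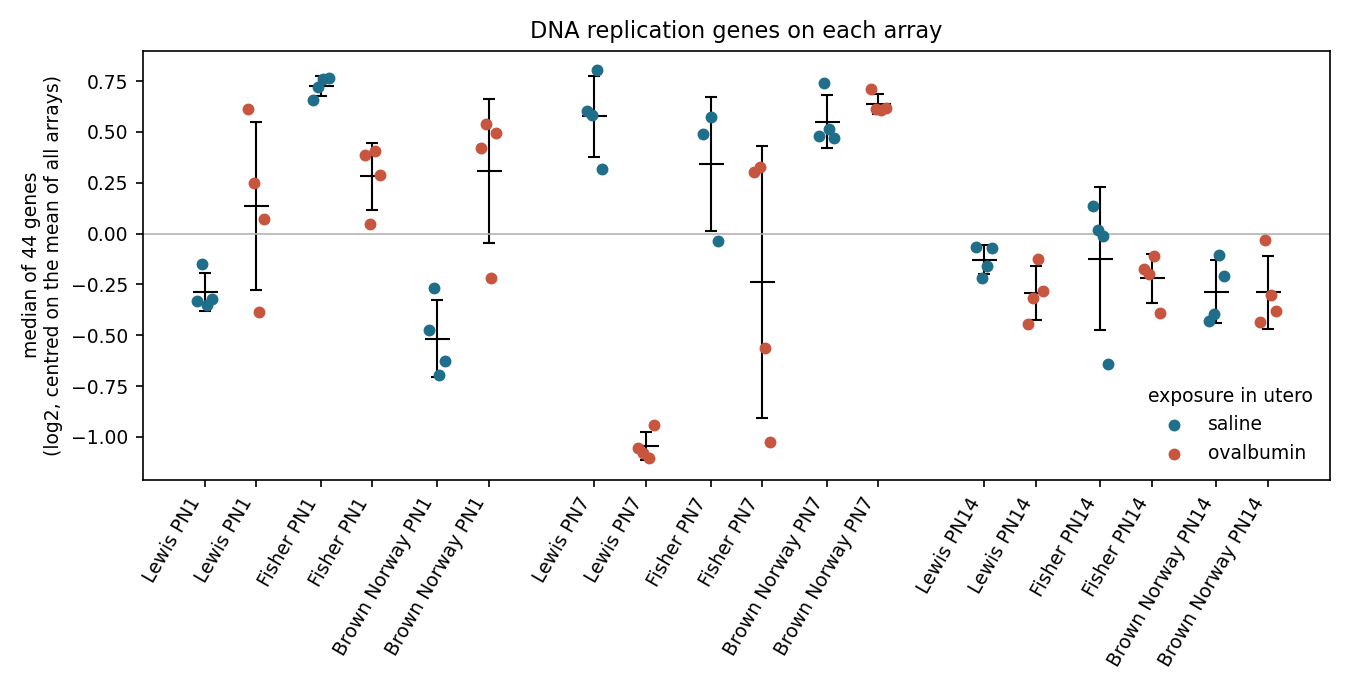
Median of the 44 measured genes on each array (log2, each gene centred on its mean over all arrays), by strain, age and exposure in utero; horizontal marks are group means and bars 1 SD. Saline arrays of Fisher stand at 0.73 at PN1, above those of Lewis (-0.29) and Brown Norway (-0.52), and the Lewis PN7 ovalbumin group has the lowest mean, -1.04.

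The summary by array shows the shape of the data. The median of the 44 centred log2 levels averaged -0.29 ± 0.09 (SD, n = 4) in Lewis PN1 saline lung, 0.73 ± 0.05 in Fisher and -0.52 ± 0.19 in Brown Norway. At PN7 the saline groups stood at 0.58 ± 0.20, 0.34 ± 0.33 (n = 3) and 0.55 ± 0.13, and at PN14 at -0.13 ± 0.07, -0.12 ± 0.35 and -0.29 ± 0.15, in the same order of strains. Thus Fisher lung was already high on day 1, Lewis and Brown Norway lung were high on day 7, and all strains were lower by day 14. After ovalbumin the PN7 means were -1.04 ± 0.07 in Lewis, -0.24 ± 0.67 in Fisher and 0.64 ± 0.05 in Brown Norway. In whole lung, fewer dividing cells and less RNA of these genes per cell cannot be told apart.

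**Figure D2:**
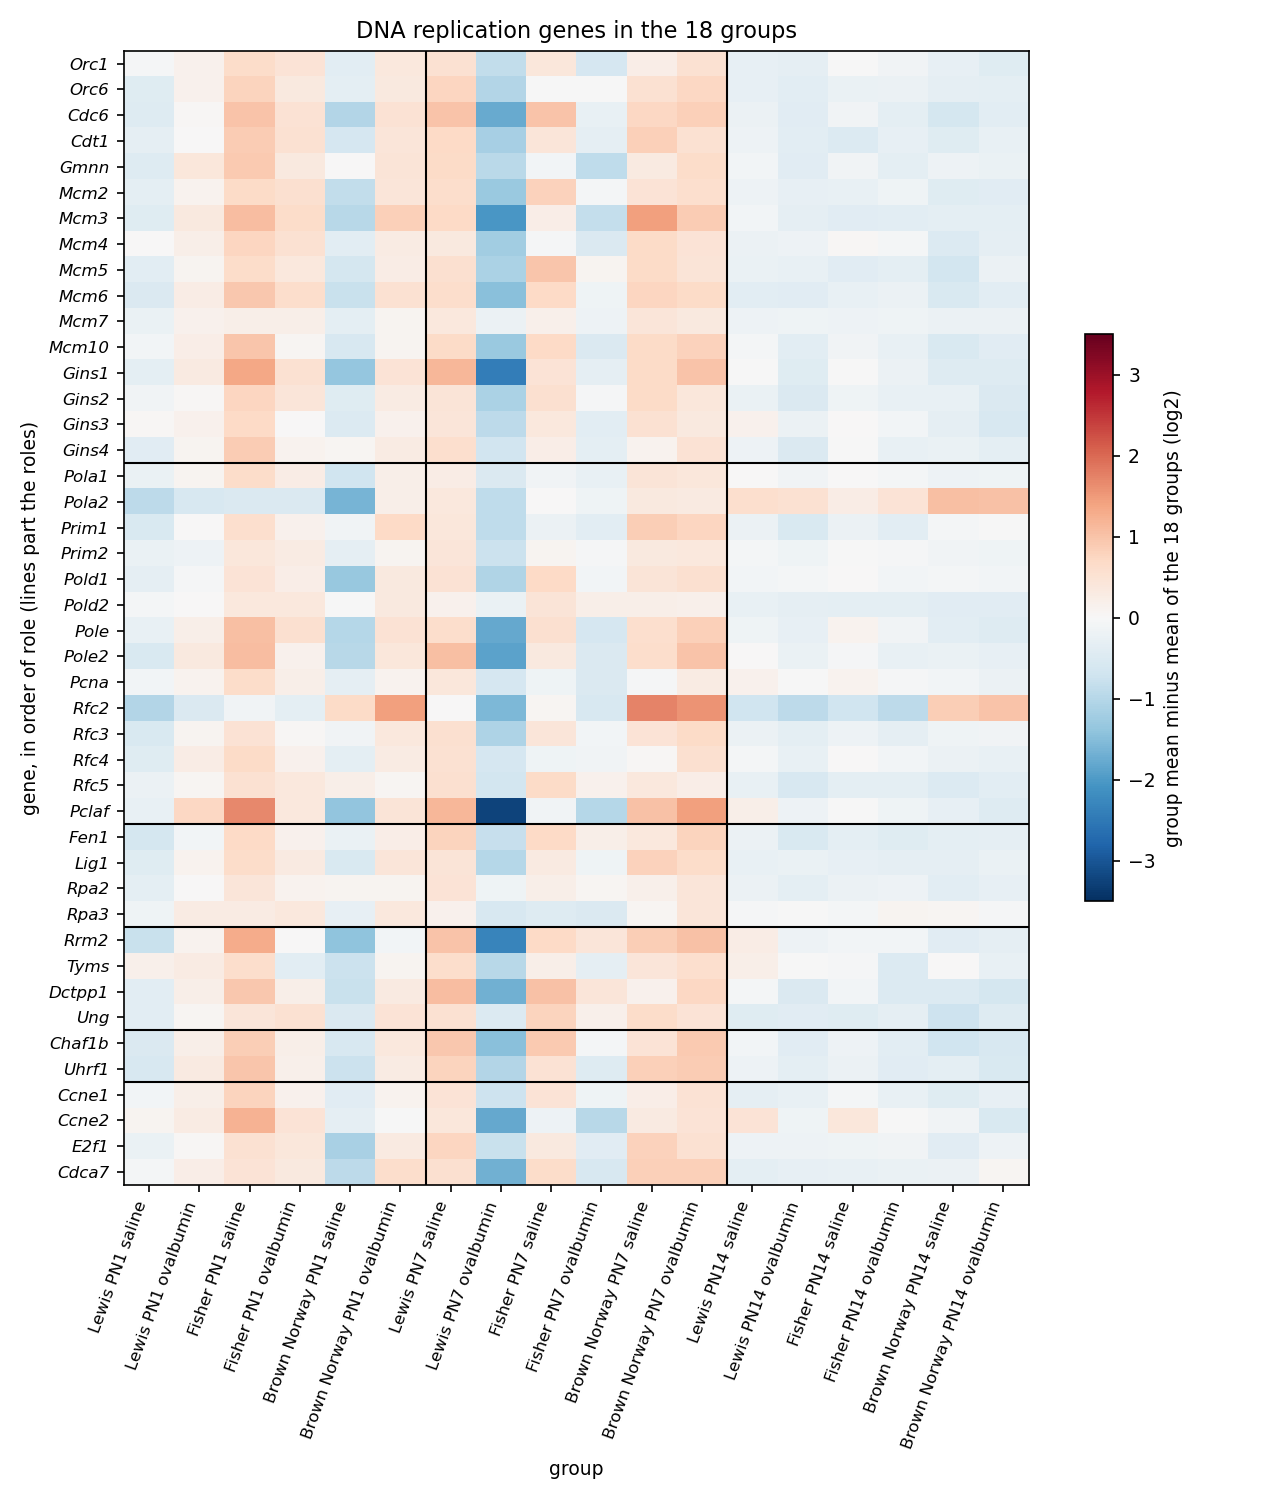
Mean log2 level of each of the 44 genes in the 18 groups, less that gene's mean over the 18 groups (red higher, blue lower), with genes in order of role and ages parted by vertical lines. The Lewis PN7 ovalbumin column is the lowest for 36 of the 44 genes, and Pola2 and Rfc2 stand apart from their neighbours in the Brown Norway columns.

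In saline lung, with the 3 strains averaged, between PN1 and PN7 35 of the 44 genes were higher at PN7 and none was lower; the median log2 difference was 0.60, against 0.02 over all probes, of which 24.3% were called higher and 22.7% lower. All 4 measured genes of nucleotide supply and uracil removal rose, as did 12 of 14 genes of the polymerases, primase, clamp and clamp loader and 11 of 16 origin licensing and firing genes. The largest differences were those of Pola2, the accessory subunit of polymerase alpha (1.25 ± 0.14, adjusted p = 1.84e-10), and Rrm2, the small subunit of ribonucleotide reductase (1.16 ± 0.21, adjusted p = 8.08e-06). Cdc6 rose by 1.07, Pold1, the catalytic subunit of polymerase delta, by 0.93, and the transcription factor E2f1 by 0.92 on the log2 scale. The sliding clamp gene Pcna did not pass the test (0.00 ± 0.11), nor did the single-strand binding subunit Rpa3 (-0.02), cyclin E2 (Ccne2, -0.16), Gmnn, Gins3, Gins4, Rfc4, Mcm4 or Orc1.

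This average hides a contrast between strains. In Lewis 34 genes rose and none fell (median 0.93; 14.4% of all probes were called higher and 14.5% lower), in Brown Norway 34 rose and none fell (median 1.08; 19.8% called higher and 19.2% lower), and in Fisher none rose and 11 fell (median -0.31; 13.7% called higher and 14.2% lower). The Fisher genes that fell were Pclaf (-1.80), a clamp-binding factor, together with Ccne2, Gmnn, Rfc4, Mcm4, Prim1, Pcna, Orc6, Pola1, Rpa3 and Gins4. The Fisher count rested on the PN7 array c, since 1 gene was called without it. On that array the granulocyte list was at 1.75, against -0.51 and -0.36 on arrays a and b, the erythroid list at 1.61 against 0.69 and 0.60, and the heart and skeletal muscle list at 2.38 against 1.62 and -0.56 (means of centred log2 levels); their part was not tested. Levels of Pola2 were 9.92, 10.42, 9.69 and 9.81 (log2) on the Lewis PN1 saline arrays and 11.32, 11.28, 11.17 and 11.12 at PN7, and 9.07, 9.88, 8.88 and 9.17 in Brown Norway at PN1 and 11.15, 11.11, 11.30 and 11.25 at PN7. In both strains every PN7 array stood above every PN1 array. Fisher Pola2 levels were 10.01, 10.67, 10.48 and 10.27 at PN1 and 11.03, 11.43 and 10.21 at PN7, so those arrays overlapped.

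Rrm2 showed the same contrast. Its log2 levels were 9.11, 9.56, 8.47 and 8.54 in Lewis at PN1 and 10.83, 10.84, 11.51 and 9.60 at PN7, and in Brown Norway 8.25, 8.5, 7.97 and 8.41 at PN1 and 10.79, 10.46, 10.64 and 10.38 at PN7. In Fisher they were 10.94, 11.23, 10.97 and 10.83 at PN1 and 10.92, 10.95 and 9.35 at PN7. The Fisher PN1 arrays lay within the range of the Lewis PN7 arrays and above all Brown Norway PN7 arrays. Within saline lung, slide and age cannot be told apart between these days, and with slide as a fixed term, which then draws on the ovalbumin arrays, 10 genes were higher over the strains, 26 in Lewis and 20 in Brown Norway, while 15 fell in Fisher. Over the same step 5 of 5 measured granulocyte genes were lower and 5 of 8 erythroid genes higher at PN7. The granulocyte list was at 0.78 to 2.58 on the PN1 arrays and at -1.30 to 1.75 on the PN7 arrays, and the erythroid list at -0.27 to 0.70 and -0.53 to 1.61 (means of centred log2 levels); their part in these differences was not tested.

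From PN7 to PN14 in saline lung, a comparison that uses the same PN7 arrays, 37 of the 44 genes fell over the strains and 1 rose (median -0.72; 23% of all probes were called lower and 22% higher). All 16 origin licensing and firing genes fell (median -0.84), as did both chromatin genes, Chaf1b, a subunit of the assembly factor that places histones behind the fork, and Uhrf1, which helps copy DNA methylation. Cdc6 had the largest log2 difference (-1.21 ± 0.20, adjusted p = 1.18e-06), followed by Ung, the uracil-DNA glycosylase (-1.17 ± 0.10, adjusted p = 1.40e-13), and Mcm5 (-1.16). Log2 levels of Ung were 7.92, 8.08, 8.38 and 8.05 in Lewis at PN7 and 7.01, 7.26, 7.11 and 7.27 at PN14, 8.59, 8.10 and 8.38 and then 7.23, 7.23, 7.15 and 7.00 in Fisher, and 8.01, 8.59, 8.08 and 8.28 and then 6.88, 6.69, 7.07 and 6.83 in Brown Norway. Every PN14 array was below every PN7 array, whatever the strain. Cdc6 stood at 8.04, 7.63, 8.47 and 7.64 in Lewis at PN7 and at 6.95, 6.71, 6.47 and 6.88 at PN14, and in Brown Norway at 7.68, 7.73, 7.64 and 7.60 and then at 6.15, 6.36, 6.26 and 6.54 (log2).

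By strain, 29 genes fell in Lewis between PN7 and PN14 (5.13% of all probes were called lower), 20 in Fisher (18%) and 35 in Brown Norway (10.2%). Pola2 alone rose over the strains (0.39 ± 0.14, adjusted p = 0.0218), and its Brown Norway levels reached 12.04, 11.75, 11.94 and 11.92 (log2) at PN14. Genes that passed the test in neither direction were Tyms, Pola1, Rfc4, Pcna, Rpa3 and Ccne2. With slide as a fixed term 4 genes were called lower at PN14 and Pclaf was higher (1.318, adjusted p = 0.0192). The saline arrays of these days also shared no slide, so slide and age cannot be told apart within saline lung. Of the marker lists, 6 of 8 erythroid genes and 3 of 5 granulocyte genes were lower at PN14 as well, with list levels of -0.72 to 0.16 and -1.88 to -1.02, and their part was not tested. Between the first and the last day, PN1 to PN14, 2 genes were higher and 9 lower over the strains (17.2% and 18% of all probes), but in Fisher 1 was higher and 35 were lower (7.68% and 7.43% of all probes), whereas in Lewis 2 were higher and none lower (8.61% and 8.85%).

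The difference between strains was tested directly. In an F test of the 4 strain-by-age contrasts in saline lung, 42 of the 44 genes were called, against 37% of all probes; the exceptions were Pold2 (adjusted p = 0.145) and Orc1 (adjusted p = 0.227). The lowest adjusted p-values belonged to Orc6 (2.95e-07), a subunit of the origin recognition complex, Pold1 (5.55e-07) and Prim1 (2.54e-06), the catalytic subunit of primase. Orc6 had log2 levels of 8.78, 8.96, 8.47 and 8.51 in Lewis at PN1, 9.92, 9.78, 9.80 and 9.91 at PN7 and 8.87, 8.76, 8.67 and 8.93 at PN14. Brown Norway followed the same course, with 8.68, 8.89, 8.79 and 8.75, then 9.70, 9.53, 9.86 and 9.49, then 8.58, 8.76, 8.93 and 8.90. Fisher started at 9.98, 9.96, 9.86 and 9.70, moved to 9.36, 9.35 and 8.59 and ended at 9.11, 8.93, 8.96 and 8.45. In Lewis and Brown Norway the PN7 arrays lay above all arrays of the other days, and in Fisher the PN1 arrays did. The F test called 41 genes with slide as a fixed term.

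**Figure D3:**
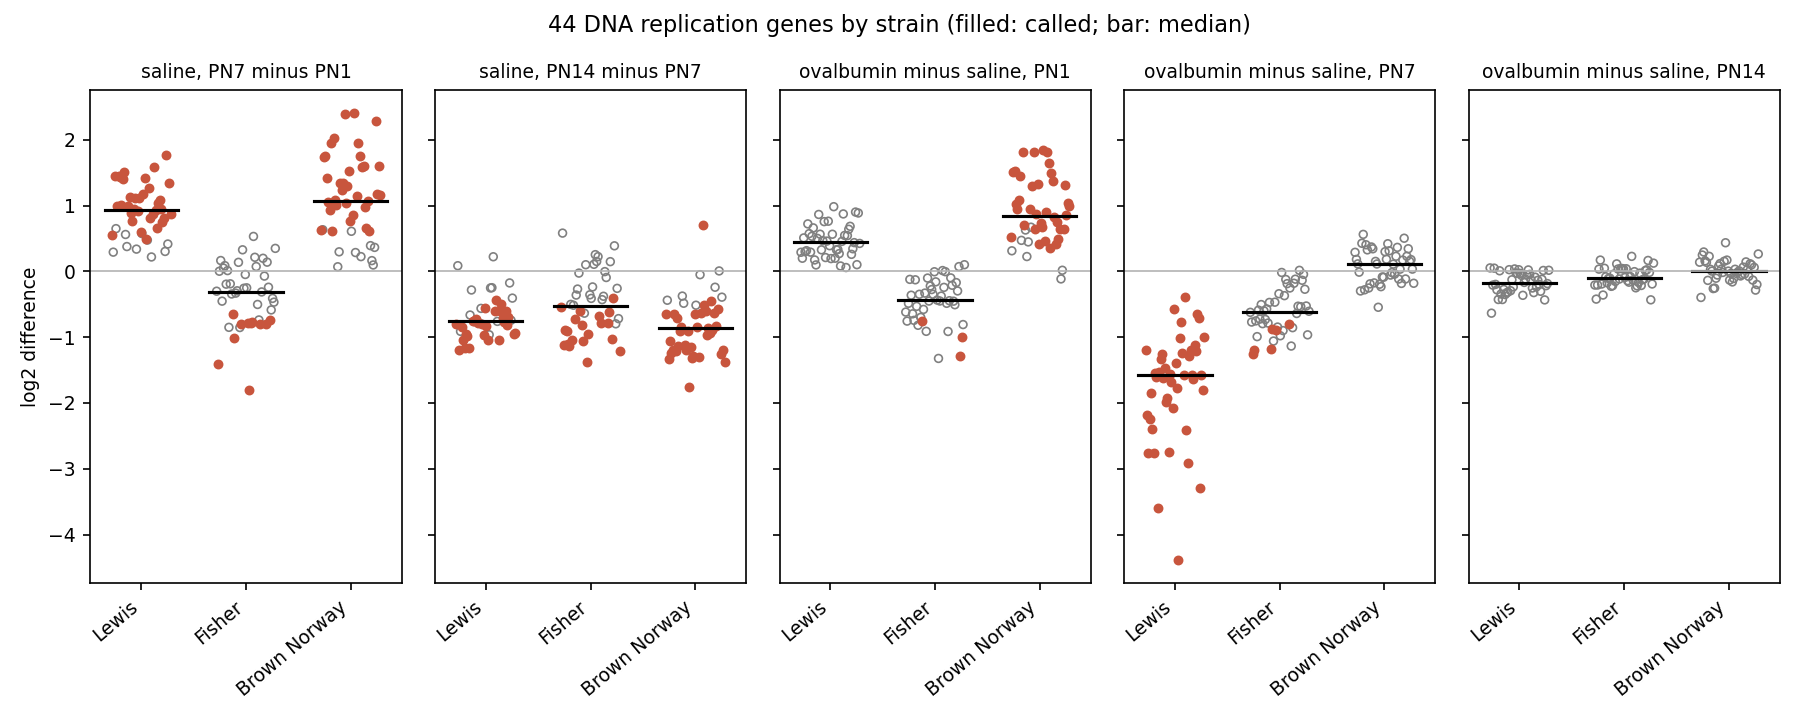
Log2 difference of each of the 44 genes in each strain, for the saline age steps and for ovalbumin minus saline at each age; filled points were called by limma and bars are medians. Lewis and Brown Norway rise from PN1 to PN7 (34 genes each) while Fisher has 11 genes lower, and the exposure differences are widest in Lewis at PN7 and in Brown Norway at PN1.

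On day 1 the strains could be compared on shared slides, since each strain had 2 saline arrays on each of 2 slides. Fisher lung was higher than Lewis lung for 38 of the 44 genes and lower for none (median 1.03; 8.81% of all probes were called higher and 9.12% lower), and Brown Norway lung was lower than Fisher lung for 42 genes and higher for 1 (median -1.19; 15.8% called lower and 15.1% higher); the comparisons share the Fisher arrays. Rrm2 differed most between Fisher and Lewis (2.07 ± 0.36, 4.20-fold, adjusted p = 1.13e-05), then Pclaf (1.96 ± 0.48, 3.90-fold, adjusted p = 0.00176), Gins1 (1.68) and Pole2 (1.61), the accessory subunit of polymerase epsilon. Pclaf log2 levels were 10.44, 10.40, 10.63 and 10.03 on the Fisher arrays, 8.66, 8.82, 8.06 and 8.11 on the Lewis arrays and 6.92, 7.96, 7.04 and 7.23 on the Brown Norway arrays. The strains did not overlap, and Pclaf also had the largest log2 difference between Brown Norway and Fisher (-3.09, 8.49-fold lower, adjusted p = 5.15e-07). Within single slides the median log2 difference of the 44 genes between Fisher and Lewis was 0.92 and 1.11, with all 44 above 0 on both slides, and between Brown Norway and Fisher it was -1.05 and -1.32. The lung marker list also separated the strains, at -0.21 to -0.11 in Fisher, -0.03 to 0.08 in Lewis and 0.23 to 0.32 in Brown Norway (means of centred log2 levels), with 1 of 6 genes lower in Fisher than in Lewis and 4 of 6 higher in Brown Norway than in Fisher. The thymus and T cell list was at -1.27 to -1.11 in Lewis and -0.59 to -0.26 in Fisher, with 2 of 7 genes called higher in Fisher. Of the 5 liver genes 1 was higher in Fisher than in Lewis and 2 were lower in Brown Norway than in Fisher. The part of these lists was not tested.

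Uhrf1 was not detected in Lewis or Brown Norway on any PN1 saline array, so its level there is a bound: it was at least 1.93-fold higher in Fisher than in Lewis and at least 1.68-fold higher than in Brown Norway. Genes that did not pass the test between Fisher and Lewis were Pola2 (0.40 ± 0.24), Tyms, the thymidylate synthase (0.42 ± 0.27), Rpa3, Cdca7, Gins3 and Orc1. Lewis and Brown Norway were closer, with 2 genes higher in Brown Norway and 7 lower (13.2% and 13.4% of all probes). The lower genes were Pold1 (-1.01), Gins1 (-1.0), Tyms (-0.95), E2f1 (-0.89), Cdca7 (-0.84), Pola2 (-0.71) and Mcm2 (-0.53), and the higher ones were Rfc2 (1.71) and Rpa2 (0.42). Pold1 stood at 7.53, 7.60, 7.51 and 7.89 (log2) in Lewis, at 7.99, 8.62, 8.48 and 8.61 in Fisher and at 6.58, 6.83, 6.47 and 6.60 in Brown Norway, so that the 3 strains did not overlap. The number lower in Brown Norway was 3 without Brown Norway array c and 18 with array weights.

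On later days few genes were called between the strains. At PN7 in saline lung 5 genes were lower in Fisher than in Lewis, Orc6 (-0.75), Gmnn (-0.77), Prim1 (-0.59), Pcna (-0.55) and Rfc4 (-0.68), and none was higher (7.88% of all probes were called lower and 9.14% higher). Between Brown Norway and Fisher 6 genes were higher, Orc6, Mcm3, Mcm4, Pola1, Prim1 and Rfc2, and Dctpp1 was lower (14.4% and 14.8% of all probes). Between Brown Norway and Lewis only Rfc2 (1.74) was higher and only Dctpp1, a pyrophosphatase that clears unwanted dCTP (-0.92), was lower (8.85% and 7.75% of all probes). At PN14 no gene was called between Fisher and Lewis (1.78% of all probes higher, 2.1% lower), and at an unadjusted p under 0.05 none was either. Brown Norway differed there from Lewis in Rfc2 (1.55; 3.24% of all probes were called higher) and from Fisher in Rfc2 (1.56) and Pola2 (0.80; 3.6% called higher).

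Rfc2, a small subunit of the clamp loader, thus separated Brown Norway from the other strains on every day. It had only 1 probe on the array, so no other probe could be compared. Its log2 levels in saline lung were 7.71, 8.58, 8.28 and 7.96 in Brown Norway at PN1, against 6.69, 6.87, 5.91 and 6.21 in Lewis and 7.27, 7.58, 7.31 and 7.17 in Fisher. At PN14 they were 8.33, 8.09, 8.46 and 8.37 in Brown Norway, against 6.70, 6.75, 6.81 and 6.80 in Lewis and 6.69, 6.74, 6.82 and 6.77 in Fisher. At each age and in each exposure every Brown Norway array was above every Lewis and Fisher array. The log2 difference from Lewis was between 1.55 and 3.13 over the 6 comparisons of age and exposure, with the largest at PN7 after ovalbumin. The other measured loader subunits, Rfc3, Rfc4 and Rfc5, were called between Brown Norway and Lewis at no age in saline lung. At PN7 after ovalbumin they were called higher in Brown Norway than in Lewis, as were all 44 genes (18.8% of all probes).

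**Figure D4:**
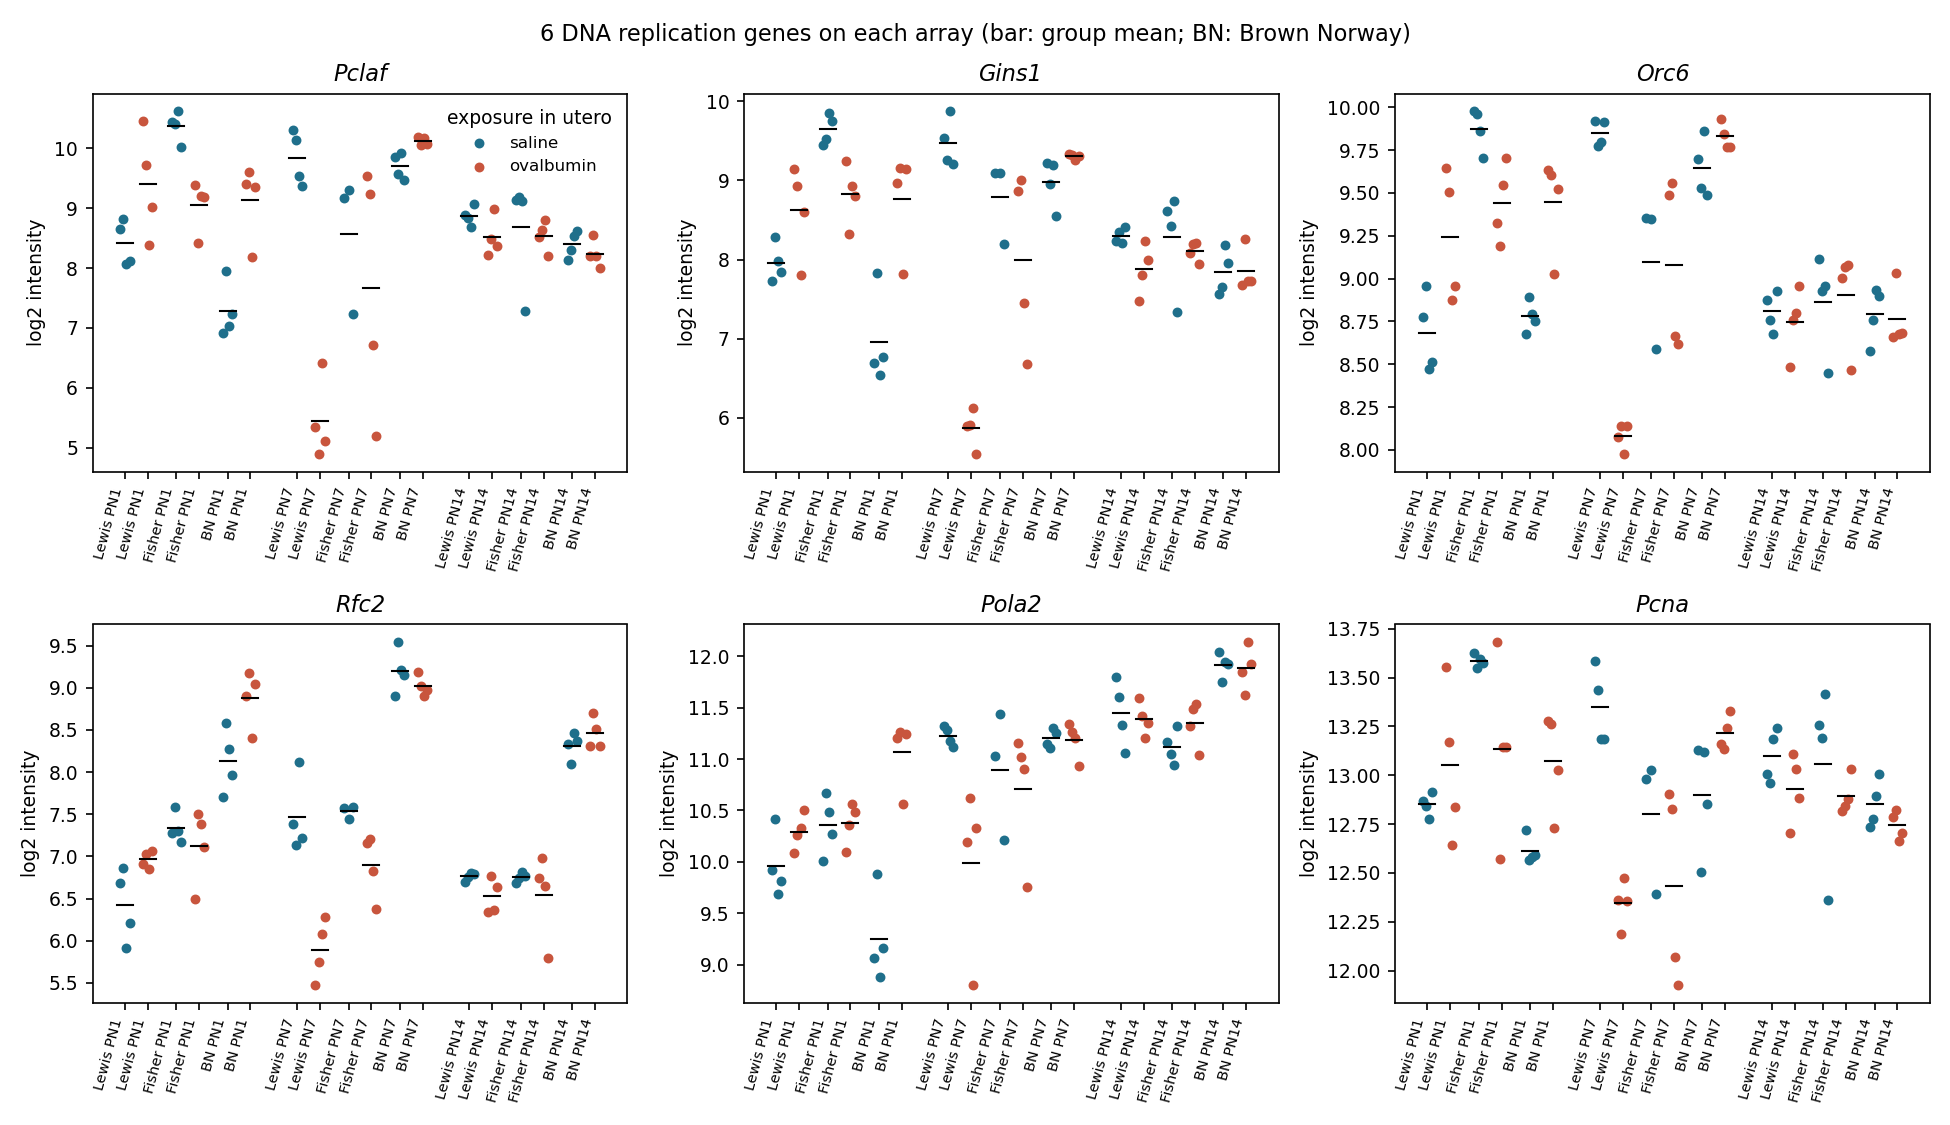
Log2 intensity of Pclaf, Gins1, Orc6, Rfc2, Pola2 and Pcna on each array, by strain, age and exposure; bars are group means and each panel has its own scale. Pclaf, Gins1 and Orc6 follow the shared pattern with their lowest group in Lewis PN7 ovalbumin, Rfc2 is higher in Brown Norway at every age, and Pola2 is highest at PN14 in Brown Norway.

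At PN1 ovalbumin in utero went with different changes in each strain. In Brown Norway 36 of the 44 genes were higher than after saline and none was lower (median 0.84; 13.7% of all probes were called higher and 12.6% lower), among them 13 of 14 polymerase, primase, clamp and loader genes, 12 of 16 origin genes and all 4 nucleotide genes. Pclaf rose by 1.85 ± 0.48 on the log2 scale (adjusted p = 0.00217), Pola2 by 1.82 ± 0.24 (adjusted p = 3.61e-08) and Gins1 by 1.82 ± 0.31 (adjusted p = 7.39e-06). Pola2 log2 levels were 11.20, 11.26, 10.56 and 11.24 after ovalbumin and 9.07, 9.88, 8.88 and 9.17 after saline, and Pold1 levels were 8.20, 8.54, 7.92 and 8.45 against 6.58, 6.83, 6.47 and 6.60. Neither gene's groups overlapped, and for 20 of the 44 genes the 4 ovalbumin arrays were all above the 4 saline arrays (15.6% of all probes). The genes not called were Rfc5, Rpa2, Gins4, Ccne2, Gmnn, Fen1, Gins3 and Mcm10. On the slide that held both exposures the median log2 difference was 0.92 with 20 genes called. In the same arrays the macrophage list was at 0.40 to 0.63 after ovalbumin and at -0.59 to -0.50 after saline (mean of 3 centred log2 levels, 1 of 3 genes called higher). The granulocyte list was at 0.63 to 0.95 and at 1.13 to 2.05 (1 of 5 genes lower), and the lung list at 0.06 to 0.22 and at 0.23 to 0.32 (1 of 6 genes higher, 3 lower). The part of these lists was not tested.

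In Lewis at PN1 all 44 genes had a higher mean after ovalbumin (median log2 difference 0.45) but none passed limma's test (0.114% of all probes were called higher and 0.0571% lower). At an unadjusted p under 0.05, 24 were higher, but the share of all probes at that threshold was not counted. Medians of the 44 centred log2 levels after ovalbumin were 0.61, 0.25, -0.39 and 0.07 on arrays a to d. Array a, the highest, had the thymus and T cell list at 4.90, against -0.30, -0.85 and -0.84 on b, c and d. The part of this list was not tested. Without array c, the lowest, 7 genes were called. Rfc3 came nearest (0.64 ± 0.17, adjusted p = 0.0954), with log2 levels of 10.99, 10.79, 10.18 and 10.71 after ovalbumin and 10.15, 10.29, 9.66 and 10.02 after saline. In Fisher at PN1 none was higher and 3 were lower, Rrm2 (-1.29 ± 0.36, adjusted p = 0.0314), Tyms (-0.99 ± 0.27, adjusted p = 0.0305) and Gins4 (-0.75 ± 0.18, adjusted p = 0.011), with a median of -0.44 (1.46% of all probes were called higher and 1.3% lower). Rrm2 stood at 9.91, 9.48, 9.76 and 9.67 (log2) after ovalbumin and at 10.94, 11.23, 10.97 and 10.83 after saline. Tyms stood at 8.25, 7.37, 8.04 and 8.21 after ovalbumin and at 8.96, 9.40, 9.22 and 8.25 after saline. Both pairs of groups were free of overlap, though for Tyms by a small margin. In Fisher at PN1 41 of the 44 genes had a lower mean after ovalbumin. For 20 genes the 4 ovalbumin arrays were all below the 4 saline arrays (3.79% of all probes), and for 0 genes all above (5.18%). Leaving out single arrays gave between 0 and 5 lower genes in Fisher, while the deposited log2 values gave 7 and both slide as a fixed term and array weights gave 15. An F test of the exposure difference between strains at PN1 called 35 of the 44 genes, against 22.6% of all probes.

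At PN7 the exposure difference in Lewis covered the whole list. All 44 measured genes fell after ovalbumin and the median log2 difference was -1.58, against 16.9% of all probes called lower; for each of the 44 the 4 ovalbumin arrays were all below the 4 saline arrays, which held for 15% of all probes in that direction. Pclaf fell by 4.39 ± 0.48 on the log2 scale (21.0-fold from the measured means, adjusted p = 6.58e-11) and Gins1 by 3.60 ± 0.31 (12.1-fold, adjusted p = 7.08e-14). Pclaf log2 levels were 10.30, 10.14, 9.54 and 9.37 after saline and 5.35, 4.89, 6.42 and 5.12 after ovalbumin, where 1 of 4 arrays detected it, so that 3 of the 4 values behind its fold are below detection. Gins1 levels were 9.53, 9.26, 9.88 and 9.21 after saline and 5.90, 5.91, 6.13 and 5.54 after ovalbumin.

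By role, the median log2 difference in Lewis at PN7 was -2.17 over the 4 nucleotide genes, -2.10 over the 2 chromatin genes, -1.87 over the 4 genes of G1/S control, -1.72 over the 16 origin genes, -1.26 over the 14 polymerase, primase, clamp and loader genes and -1.08 over Fen1, Lig1, Rpa2 and Rpa3. These medians include fitted values of 6 origin genes and of 1 chromatin gene, Uhrf1, that no ovalbumin array detected; with these at their bounds the medians were -1.59 over the origin genes, -1.45 over the chromatin genes and -1.55 over all 44 genes. Among the nucleotide genes Rrm2 fell by 3.30 and Dctpp1 by 2.76. Rrm2 stood at 10.83, 10.84, 11.51 and 9.60 (log2) after saline and at 7.22, 7.41, 7.82 and 7.14 after ovalbumin. Dctpp1 stood at 10.90, 10.34, 11.28 and 10.44 and at 8.0, 8.06, 7.97 and 7.87, with ovalbumin arrays closer to each other than the saline arrays. Among the origin genes Mcm3 fell by 2.74, Mcm6 by 2.08 and Mcm2 by 1.92, whereas Mcm7, another subunit of the same helicase, fell by 0.57. Mcm2 levels were 10.25, 10.22, 10.61 and 9.99 after saline and 8.24, 8.35, 8.45 and 8.36 after ovalbumin.

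The smallest differences in Lewis at PN7 were those of Pold2, the accessory subunit of polymerase delta (-0.39 ± 0.12, adjusted p = 0.0108), Mcm7 and Rpa2 (-0.64). Pold2 log2 levels were 9.36, 9.33, 9.62 and 9.30 after saline and 9.04, 9.02, 9.02 and 9.0 after ovalbumin. Pcna, which passed neither age test over the strains, was lower here as well, at 13.58, 13.44, 13.19 and 13.19 after saline and 12.36, 12.19, 12.47 and 12.36 after ovalbumin (log2 difference -1.01 ± 0.18, adjusted p = 8.32e-06). The ligase Lig1 fell by 1.46, the flap endonuclease Fen1, which trims Okazaki fragments, by 1.60, and E2f1 by 1.55. For 7 genes that no ovalbumin array detected, the fall is a bound, at least 4.37-fold for Cdc6, 2.47-fold for Mcm10, 2.21-fold for Cdt1, 1.89-fold for Orc1, 1.62-fold for Gins3, 1.55-fold for Gins2 and 1.42-fold for Uhrf1.

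**Figure D5:**
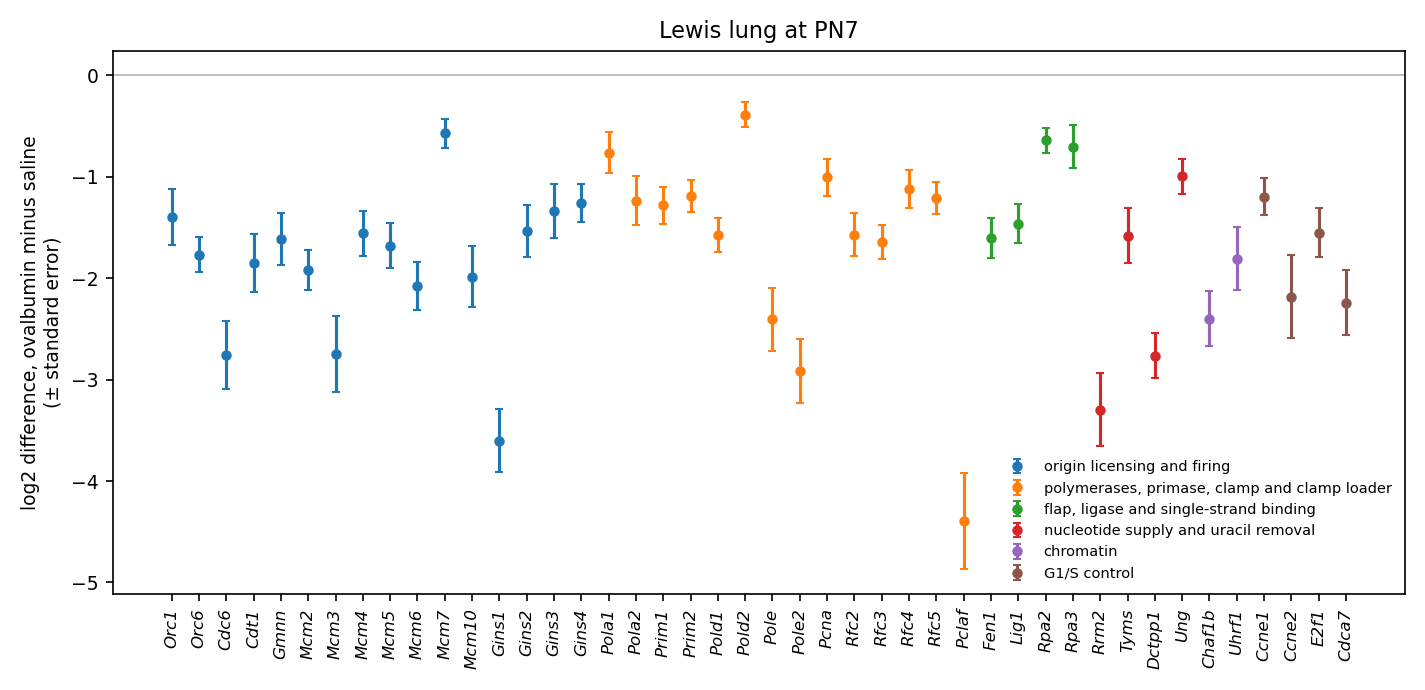
Log2 difference between ovalbumin and saline in Lewis lung at PN7 for the 44 genes, coloured by role, with standard errors. All 44 lie below 0, from -0.39 for Pold2 to -4.39 for Pclaf; for Orc1, Cdc6, Cdt1, Mcm10, Gins2, Gins3 and Uhrf1 no ovalbumin array detected the probe, so the point is a fitted value below the detection limit.

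Both exposures of Lewis PN7 lay 2 and 2 on the same slides, and within a slide the median log2 difference was -1.62 on 1 slide and -1.56 on the other, with all 44 genes below 0 on each. The count of lower genes was 43 to 44 when any 1 array was left out. In these arrays 4 of 5 measured granulocyte genes and 3 of 6 lung genes were also higher after ovalbumin; the granulocyte list was at 1.00 to 1.89 after ovalbumin and -1.30 to 1.30 after saline, and the lung list at 0.12 to 0.27 and -0.25 to 0.04 (means of centred log2 levels). The macrophage list was at 0.52 to 0.78 after ovalbumin and 0.13 to 0.43 after saline. The thymus and T cell list was at -1.08 to -0.28 and -0.25 to 0.03. The part of these lists in the fall of the replication genes was not tested. The comparison shares its saline arrays with the Lewis age steps above.

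Brown Norway lung at PN7 gave no call in either direction, with a median log2 difference of 0.11 (0.0856% of all probes called higher, 0.0642% lower). For 10 of the 44 genes the 4 ovalbumin arrays were all above the 4 saline arrays (2.85% of all probes), and for 0 genes all below (2.82%). At an unadjusted p under 0.05, 4 genes were higher and none lower, but the share of all probes at that threshold was not counted. Pclaf levels after ovalbumin were 10.19, 10.06, 10.17 and 10.07 (log2), and Gins1 levels 9.33, 9.32, 9.26 and 9.31. All 4 saline arrays were on 1 slide and the ovalbumin arrays on other slides, so exposure and slide cannot be told apart within this strain at PN7; with slide as a fixed term, which draws on the other groups, 10 genes were called higher. Fisher at PN7 had 6 genes lower and none higher (median -0.61; 0.934% of all probes were called lower and 1.07% higher), namely Cdc6 (-1.26 ± 0.36, adjusted p = 0.0484), Cdca7 (-1.20 ± 0.34, adjusted p = 0.0484), Mcm10 (-1.18), Mcm5 (-0.89), Mcm2 (-0.87) and Pold1 (-0.80). Cdc6 log2 levels were 8.26, 8.22 and 7.34 after saline and 7.90, 7.78, 6.28 and 4.78 after ovalbumin, and Cdca7 levels were 9.79, 9.84 and 9.11 and then 9.31, 9.53, 8.32 and 6.37. In both genes ovalbumin arrays a and b, on the slide shared with saline arrays a and b, lay near those saline arrays, and arrays c and d, on a slide without saline arrays of this group, lay below. Arrays c and d also had a granulocyte list at 1.36 and 2.96, against -0.28 and 0.42 on a and b, a heart and skeletal muscle list at 2.35 and 3.32, against 1.34 and 1.01, and an erythroid list at 1.26 and 1.74, against 0.87 and 0.79 (means of centred log2 levels). Of these lists 1 of 5 granulocyte genes, none of 6 heart and muscle genes and none of 8 erythroid genes were called higher after ovalbumin, and their part was not tested. On the shared slide the median log2 difference was -0.24 with no gene called, and single arrays left out moved the count from 0 to 19. Every same-letter pair of this group deviated together (correlations 0.351, 0.433 and 0.340), and with the pairs as a block, a fit added after seeing the data, 0 genes were called. A fixed slide term likewise left 0 genes, and array weights gave 17. An F test of the exposure difference between strains at PN7 called 41 of the 44 genes, against 25% of all probes; Pola1, Mcm7 and Pold2 were the exceptions.

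At PN14 no gene was called between exposures in any strain, with median log2 differences of -0.18 in Lewis, -0.10 in Fisher and 0.01 in Brown Norway, and none had an unadjusted p under 0.05 (0% of all probes were called in Lewis, 0.0143% in Fisher and 0.00713% in Brown Norway). The F test between strains called none, and 0% of all probes. At this age the saline and ovalbumin arrays lay on different slides, so exposure and slide cannot be told apart; with slide as a fixed term 8 genes were called lower in Lewis. Lewis PN14 lung after ovalbumin had Orc6 levels of 8.49, 8.76, 8.80 and 8.95 (log2), close to the 8.87, 8.76, 8.67 and 8.93 after saline, whereas the Lewis PN7 ovalbumin arrays were at 8.08, 8.14, 7.97 and 8.14. Accordingly, within ovalbumin-exposed Lewis lung 40 genes fell from PN1 to PN7 (12.4% of all probes) and 29 rose from PN7 to PN14 (15.9%), the opposite order of signs to saline-exposed Lewis lung. In ovalbumin-exposed Brown Norway lung none was called over the first step (1.93% of all probes were called higher and 2.3% lower), and 36 fell over the second (5.17%). Over the first step 7 were higher and none lower at an unadjusted p under 0.05, where the share of all probes was not counted. These age steps share arrays with the exposure comparisons. In both strains the PN7 and PN14 ovalbumin arrays shared no slide, so slide and age cannot be told apart over the second step.

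The order of the strains in ovalbumin-exposed lung was therefore not that of saline-exposed lung. At PN1, where 38 genes separated Fisher from Lewis after saline, 1 gene, Prim2 (0.47), was higher in Fisher after ovalbumin (5.73% of all probes). At PN7 all 44 genes were higher in Brown Norway than in Lewis (median log2 difference 1.63; 18.8% of all probes), 31 were higher in Fisher than in Lewis (19.1%) and 36 were higher in Brown Norway than in Fisher (15%), with none lower in the 3 comparisons (19.2%, 20.3% and 13.2% of all probes, in the same order), which share arrays. Brown Norway and Fisher arrays shared no slide there, so strain and slide cannot be told apart between these groups. The Fisher arrays were split. Medians of the 44 centred log2 levels were 0.30 and 0.33 on a and b and -0.56 and -1.03 on c and d. The bearing of this split on the counts of 31 and 36 was not tested. At PN14 Rfc2 alone was called, higher in Brown Norway than in Lewis (1.93; 3.26% of all probes) and than in Fisher (1.92; 3.53%).

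Most of the genes varied together over the groups. Across the 18 group means the correlation of a gene with the median of the other genes had a median of 0.910, and 25 of 44 genes were at 0.9 or above; the points share arrays and normalization, so these are descriptions. Mcm6 (0.984) and Cdc6 (0.983) were closest to the shared pattern, and Pola2 (0.190) and Rfc2 (0.489) were the 2 genes under 0.5. Neither of these 2 had a match to the E2F letters searched. Chaf1b (0.963) and Orc6 (0.953), also without a match, were close to the shared pattern. Pclaf spanned 4.93 log2 units between the means of its highest and lowest group, the latter detected on 1 of 4 arrays, Gins1 3.77 and Mcm7 0.77. The highest group was Fisher PN1 saline for 22 genes, Brown Norway PN7 saline for 7 and the saline PN7 groups of Fisher and of Lewis for 6 each.

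Other genes of the cycle, from lists that hold no member, were set beside them. Of 16 measured mitosis genes, 15 were higher in Fisher than in Lewis at PN1 (median log2 difference 1.96), 16 were lower after ovalbumin in Lewis at PN7 (median -2.39) and none was called between exposures in Brown Norway at PN7. At PN1 in Brown Norway, where 36 replication genes rose after ovalbumin (median 0.84), no mitosis gene was higher and 1 was lower (median 0.38). In Fisher at PN1 3 replication genes were called lower and 41 of the 44 had a lower mean (median -0.44). There 14 mitosis genes were called lower (median -1.77). The difference between the lists was not tested. Of 23 further replication genes, 12 were lower and 1 higher after ovalbumin in Lewis at PN7 (median -0.44). There Asf1b, a histone chaperone, was at -2.81 and Timeless, a fork protection factor, at -1.54. Among 13 regulators of the G1/S step, 6 were lower and 2 higher there, with cyclin A2 (Ccna2) at -3.44 and cyclin D1 (Ccnd1) at -1.92, and of 5 inhibitors 2 were higher and 1 was lower, with Cdkn1b at 0.99 and Cdkn2c at -1.35.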

How the data were processed

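Every sample is labelled whole lung, while the extraction protocol in the labels mentions primary lung cells. Whole lung was taken as the material. Total RNA was extracted with Trizol, amplified to biotin-labelled cRNA and hybridised to Illumina bead arrays, per the labels' protocols. The authors deposited, per array and probe, a mean bead intensity with a detection p-value, and log2 values whose processing used lumi (per the submitters' processing notes, version not given); the deposited log2 values differed by no more than 5e-05 from quantile-normalized log2 intensities. The annotation paired 13793 of 22523 probes with 1 symbol.

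From the deposited intensities and detection p-values, neqc (limma 3.58.1 in R 4.3.3, offset 16) gave background-corrected, quantile-normalized log2 levels. Probes with a detection p under 0.01 on at least 3 arrays (14019) were fitted in 1 model with 18 group means (53 residual degrees of freedom), with lmFit and eBayes with a trend, and contrasts were adjusted by Benjamini-Hochberg over all probes and called under 0.05. A gene with several probes was read from its brightest (Mcm5 and Cdca7 have 2 detected probes). Where no array of a group detected a probe, the fold is a bound against the lowest detected signal. On data simulated for ovalbumin against saline in Lewis at PN7 with 14019 probes, 43 of 100 changes of 1.5-fold and 92 of 100 of 2-fold were called, and 6 of 13819 unchanged probes. The simulated noise was independent between probes and arrays, with no slide or tissue effect and no other changes. In the measured comparison 35.2% of all probes were called, so the simulated rates do not carry over to it. The number of arrays limits the precision.

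Members, lists and the comparisons shown were chosen with earlier results of these data known. Members may all be named; for other lists at most 2 examples of lowest p are given. The replicate letters a to d were checked as pairs over the exposures of each strain and age: only in Fisher PN7 did every pair's deviations correlate (0.351, 0.433 and 0.340). Alternatives were the deposited log2 values, slide as a random block or fixed term, no detection filter, no background correction, array weights, separate fits, the letter as a block, single slides and single arrays left out. Figures were drawn with matplotlib 3.10.9.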

Additional observations from a re-analysis of the deposited data

Results flagged for a closer look

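Differences between strains were called by limma's F tests themselves. The age profile of saline lung differed between strains for 42 of the 44 genes (37% of all probes). The exposure difference at PN1 differed for 35 (22.6% of all probes) and that at PN7 for 41 (25%).

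Single arrays stood apart from the other 3 of their group in 21 cases, 8.82% of those examined (one gene or the members' median in one group of 4 arrays), where chance gives about 1 in 20. For the median of the 44 centred log2 levels these were Lewis PN1 saline array b (-0.15), Brown Norway PN1 ovalbumin array c (-0.22), Brown Norway PN7 saline array b (0.74) and Brown Norway PN7 ovalbumin array a (0.71). Brown Norway PN1 ovalbumin array c was also low, as a log2 level, for Pola2 (10.56), Rrm2 (8.66), Gins1 (7.82) and Cdca7 (9.04); without it 38 of the 44 genes were higher after ovalbumin in that group. Fisher PN14 saline array d was low for Rrm2 (8.12), Cdc6 (5.91), Pclaf (7.28), Rpa2 (8.82) and Cdca7 (7.84). Fisher PN14 ovalbumin array d was low for Orc6 (8.47) and for Prim1 (9.89), and Fisher PN1 ovalbumin array a for Prim1 (10.77). Brown Norway PN14 ovalbumin array b was high for Orc6 (9.03) and Gins1 (8.26), and Lewis PN7 ovalbumin array c for Cdc6 (5.60). Lewis PN1 saline array d was low for Rpa2 (8.86), and Lewis PN7 saline array d, whose liver list was high, stood apart for Tyms (8.39).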

How the results depend on the processing

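Counts below are of the 44 genes called, by limma with Benjamini-Hochberg adjustment. As reported, 7 were lower in Brown Norway than in Lewis at PN1, and 3 and 6 lower after ovalbumin in Fisher at PN1 and PN7. With slide as a fixed term, 10 genes rose from PN1 to PN7 and 4 fell from PN7 to PN14 over the strains, 20 rose in Brown Norway, 15 and 0 fell after ovalbumin in Fisher at PN1 and PN7, 10 rose after ovalbumin in Brown Norway at PN7 and 8 fell in Lewis at PN14. That fit also reversed Pclaf from PN1 to PN7 (-0.197, adjusted p = 0.758), Gins1 from PN7 to PN14 (0.132, adjusted p = 0.806) and Pclaf from PN7 to PN14 (1.318, adjusted p = 0.0192), as log2 differences. Fisher at PN1 gave 7 with the deposited log2 values and 7 with no background correction, 5 with slide as a random block (correlation 0.0721), 15 with array weights and 5 with only the groups compared. Fisher at PN7 gave 2 with no detection filter, 3 with the random block, 17 with weights and 0 with only the groups compared. Brown Norway against Lewis gave 18 with weights and 11 with only the groups compared. Within single slides, which hold fewer arrays, Brown Norway against Lewis gave 12 on slide 1 and 0 on slide 3, where Fisher against Lewis gave 17, Fisher at PN1 gave 6 and Brown Norway at PN1 gave 20, and on slide 4 Fisher at PN7 gave 0. Other causes were not tested.

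Leaving out 1 array at a time gave 30 to 36 genes from PN1 to PN7, 35 to 40 from PN7 to PN14, 29 to 36 in Lewis and 34 to 36 in Brown Norway from PN1 to PN7, 36 to 39 for Fisher against Lewis, 40 to 42 for Brown Norway against Fisher, 26 to 38 for Brown Norway at PN1 and 43 to 44 for Lewis at PN7. Fisher from PN1 to PN7 gave 1 to 12, with 1 without PN7 saline array c. Brown Norway against Lewis gave 3 to 8, with 3 without Brown Norway PN1 saline array c and 4 without its array a, its array d or Lewis saline array b. Lewis at PN1 gave 0 to 7, with 7 without ovalbumin array c and 1 without saline array b. Fisher at PN1 gave 0 to 5, with 0 without ovalbumin array b, 5 without ovalbumin array a and 1 without saline array a or c. Fisher at PN7 gave 0 to 19, with 0 without saline array a or ovalbumin array d, 1 without saline array b or ovalbumin array c, 19 without ovalbumin array a and 16 without ovalbumin array b. The F tests gave 36 to 42 for age, and 33 to 36, 38 to 42 and 0 for exposure at PN1, PN7 and PN14, and Brown Norway at PN7 and Lewis at PN14 stayed at 0. With the replicate letter as a block no count moved by over 1.5 times, but with Fisher PN7 alone paired, a fit added after seeing the data, its count was 0. Without the 3 arrays high in liver or thymus markers, also added after seeing the data, no count moved by over 1.5 times.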
